A study of Homo sapiens with 32 samples.

Results

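Chromatin immunoprecipitation sequencing (ChIP-seq) peaks of the nuclear receptor HNF4α were examined at 5 genes that control entry into the cell cycle, MYC, CCND1, CDKN1A, CDKN1B and CDK6. A peak belonged to a locus when its summit lay within 100 kb of the gene's span on hg38, the RefSeq span being that of assembly GRCh38.p14. This rule used the position alone, and it took 392 of the 337294 peaks in 18 peak lists. The 5 genes are 5 of 20037 protein-coding genes in the RefSeq table. The windows also hold neighbouring genes, and nearness to a gene does not show which gene a site acts on.

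The lists came from 3 human pancreatic ductal adenocarcinoma cell lines, in 9 groups of 2 libraries each. Panc10.05 and BxPC3 cells carried doxycycline-inducible HNF4α, either the P1 isoform (genotype P1-α2) or the P2 isoform (P2-α8). Doxycycline was at 500 ng/mL in BxPC3 for either isoform. In Panc10.05 it was at 12.5 ng/mL for P2-α8 but at 25 ng/mL for P1-α2, so there the isoform and its dose cannot be told apart. AsPC1 cells, for which the labels list no doxycycline, carried CRISPR interference (CRISPRi), a repression of transcription by a guide RNA, with a guide against the P1 promoter (sgP1), a guide against the P2 promoter (sgP2) or a control guide (sgNC). All of these were precipitated with an antibody against HNF4α of either promoter (pan-HNF4α, 14 lists), and a P1-specific antibody was applied in addition to the sgNC and sgP2 cells of AsPC1 (4 lists). No uninduced library of Panc10.05 or BxPC3 was analysed here. For BxPC3 P2-α8 the titles name α8 together with P1, and the genotype label was followed. Peak lists hold no expression values, so the lines could not be checked against markers. The library names place each line in its own sequencing series, so line and series cannot be told apart. The labels do not say whether replicates came from separate cultures, so the spread between them may be technical.

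HNF4α binds DNA as a homodimer and is known as a regulator of hepatocyte, intestinal and pancreatic epithelial identity. Its gene is transcribed from promoters P1 and P2, and the resulting isoforms differ in their N-terminal activation domain. The 5 genes sit at the restriction point of the cell cycle. MYC is a growth-promoting transcription factor, CCND1 encodes cyclin D1, and CDK6 is a kinase that cyclin D activates to phosphorylate RB1. CDKN1A (p21) and CDKN1B (p27) are inhibitors of cyclin-dependent kinases.

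List length differed widely and bears on every number below. The induced lines had 12681 to 41808 peaks per list, the AsPC1 pan-HNF4α lists 11686 to 24295, and the P1-antibody lists 260 to 5200. The lowest −log10 q was just over 8 in the lists of the induced lines and just over 2 in those of AsPC1, so AsPC1 numbers are not compared with those of the other lines. Read depth is unknown. Each peak's strength is given as its percentile by the authors' fold enrichment within its own list, 100 being the strongest, and because lists differ in length a percentile describes one list and shows no change between lists.

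RefSeq promoter sequences were matched for 3 of the 5 genes. They are shown for the inhibitors CDKN1A and CDKN1B, where peaks shared by both lists of a group lay over the promoter of one and beside that of the other. At CDK6, a promoter inside the gene span (chr7:92833960-92834209, minus strand) lay partly under a peak in 1 list, AsPC1 sgP1 replicate 1, with its summit 196 bp from the transcript start at percentile 30.9, and its sequence is not shown. For CDKN1A the 250 bases before the transcript start (GRCh38.p14, chr6:36678464-36678713, plus strand) lay wholly under a peak in both Panc10.05 P2-α8 lists, as the capitals mark, and under none in the other 16 lists. For CDKN1B the 121 bases between the end of the GPR19 span and the transcript start (chr12:12717247-12717367, plus strand) lay under no peak in any list, and are in lower case.
CDKN1A: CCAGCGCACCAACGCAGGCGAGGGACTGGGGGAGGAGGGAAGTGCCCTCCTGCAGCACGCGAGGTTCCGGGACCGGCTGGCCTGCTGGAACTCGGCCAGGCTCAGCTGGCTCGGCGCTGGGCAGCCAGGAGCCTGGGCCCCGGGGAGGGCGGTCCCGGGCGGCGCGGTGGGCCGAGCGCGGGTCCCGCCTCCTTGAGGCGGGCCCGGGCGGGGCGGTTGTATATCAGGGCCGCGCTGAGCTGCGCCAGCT
CDKN1B: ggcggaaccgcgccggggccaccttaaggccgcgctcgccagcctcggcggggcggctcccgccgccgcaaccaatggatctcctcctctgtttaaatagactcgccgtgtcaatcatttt
The CDKN1A stretch was 76.4% G and C, and the CDKN1B stretch was 65.3%. The peaks over the CDKN1A promoter had their summits inside the gene, 745 bp and 879 bp past the transcript start, so the promoter was at their edge. Summits within 1 kb of this start were present in 8 lists, those of Panc10.05 P2-α8 and BxPC3 P2-α8 among them. Peaks near the start were thus not confined to Panc10.05 P2-α8. HNF4 motif letters were searched on both strands as CAAAGTCCA, as CAAAGTNCA, of which the first is a case, and as a longer direct repeat (DR1) that overlaps them. None occurred in the member promoters, and over all 35116 RefSeq promoters of 300 bases the shares were 0.384%, 1.10% and 0.510%. These letters were rare in such windows.

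MYC had 112 peaks over all lists. In Panc10.05, the P1-α2 lists held 8 and 8 MYC peaks and the P2-α8 lists 16 and 13. In BxPC3, the P1-α2 lists held 15 and 14 and the P2-α8 lists 5 and 6. The isoform groups did not overlap in either line, and their order was opposite in the 2 lines. The same pattern was seen for 27.1% of 18169 protein-coding genes with a peak in both lines. In AsPC1 the pan-HNF4α lists held 7 and 3 with sgNC, 3 and 3 with sgP1, and 4 and 4 with sgP2, so sgNC overlapped both guides.

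CCND1 had a mean of 8.5 peaks per list in Panc10.05 and 2.25 in BxPC3. Panc10.05 held 6 and 6 peaks with P1-α2 and 14 and 8 with P2-α8, and BxPC3 held 5 and 3 with P1-α2 and 0 and 1 with P2-α8. Each BxPC3 list was below each Panc10.05 list, which held for 15.2% of the 19358 protein-coding genes with a peak in these lists and for 1 of the 5 genes. Per 10000 peaks of the list the same separation was seen, for 22.8% of those genes. AsPC1 held 4 and 3 with sgNC, 3 and 2 with sgP1, and 3 and 3 with sgP2.

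CDKN1A held 8 and 10 peaks in Panc10.05 P1-α2, 13 and 14 in Panc10.05 P2-α8, 16 and 11 in BxPC3 P1-α2, and 7 and 8 in BxPC3 P2-α8. As at MYC and at 27.1% of protein-coding genes with a peak in both lines, the groups did not overlap within either line and stood in opposite order. In AsPC1 it held 8 and 4 with sgNC, 4 and 2 with sgP1, and 1 and 4 with sgP2. The sgNC values touched those of both guides.

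CDKN1B varied less. It held 4 and 7 peaks in Panc10.05 P1-α2, 6 and 7 in Panc10.05 P2-α8, 5 and 6 in BxPC3 P1-α2, and 4 and 2 in BxPC3 P2-α8. AsPC1 held 5 and 4 with sgNC, 3 and 3 with sgP1, and 4 and 3 with sgP2, so that sgP1 alone lay below sgNC without overlap, as did 27.2% of 16945 genes with a peak.

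CDK6, the longest of the genes, with a window of 431.653 kb, had 44 peaks over all lists. Panc10.05 held 2 and 3 with P1-α2 and 4 and 3 with P2-α8, and BxPC3 held 4 and 4 with P1-α2 and 2 and 1 with P2-α8. AsPC1 held 7 and 3 with sgNC, 3 and 2 with sgP1, and 2 and 4 with sgP2. Only the BxPC3 isoform groups were apart, with P1-α2 higher, as for 80.4% of 18712 protein-coding genes with a peak in that line.

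**Figure D1:**
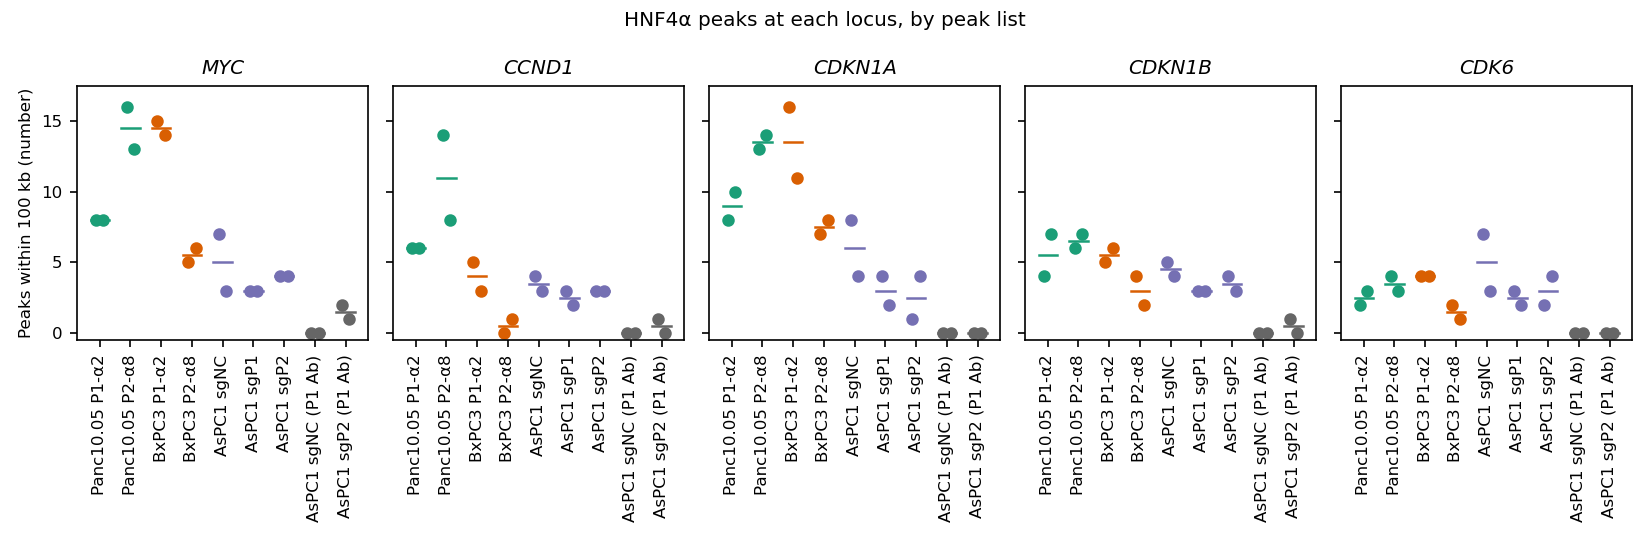
Number of HNF4α peaks (y axis) within 100 kb of each gene in every list; points are the 2 lists of a group and the line is their mean, with green for Panc10.05, orange for BxPC3, purple for AsPC1 with the pan-HNF4α antibody and grey for the P1 antibody. At MYC and CDKN1A the Panc10.05 P2-α8 and BxPC3 P1-α2 lists are the highest, while CCND1 is at 0 and 1 in BxPC3 P2-α8.

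Per 100 kb of window, MYC and CDKN1A were densely occupied against the genome in each group of the induced lines. In BxPC3 P1-α2, MYC had 6.99 peaks per 100 kb (percentile 99.4 among protein-coding genes) and CDKN1A 6.40 (percentile 98.97), where the median gene had 1.68. In BxPC3 P2-α8, with a median of 0.489, MYC was at percentile 97.4 and CDKN1A at 99.4. In Panc10.05 P2-α8 they were at percentiles 97.1 and 95.5, and in P1-α2 at 89.7 and 92.6. CDK6 stood at the other end, between percentiles 22.7 and 38.7 in the induced lines. CCND1 ranged from percentile 32.4 in BxPC3 P2-α8 to 90.3 in Panc10.05 P2-α8.

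**Figure D2:**
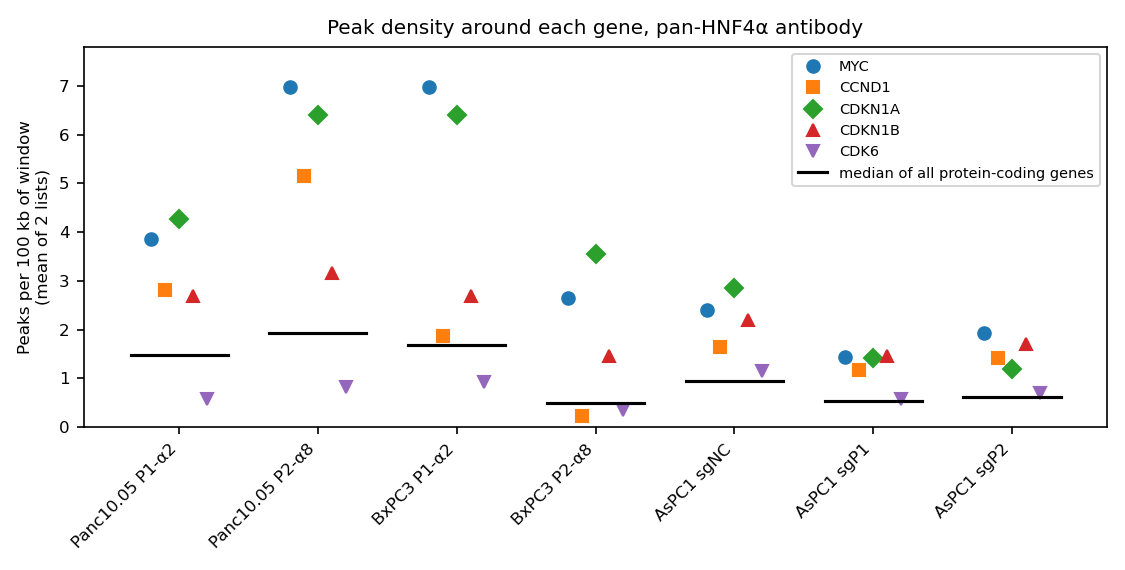
Peaks per 100 kb of window (y axis, mean of 2 lists) for the 5 genes in the 7 pan-HNF4α groups, with a black line at the median of all protein-coding genes in that group. MYC and CDKN1A lie above the median in each group, and CDK6 lies below it in the 4 groups of the induced lines.

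Nearly all loci were occupied in nearly all pan-HNF4α groups. All 5 had a peak in both lists of every pan-HNF4α group except BxPC3 P2-α8, where CCND1 did not. The share of protein-coding genes with a peak in both lists was 85.5% and 88.2% in Panc10.05 P1-α2 and P2-α8, 88.3% and 61.5% in BxPC3 P1-α2 and P2-α8, and 72.2%, 64.5% and 65.7% in AsPC1 sgNC, sgP1 and sgP2. A peak within 100 kb was therefore the rule for any gene. Within 10 kb of the span, CCND1 and CDKN1B had no peak shared by both lists in either BxPC3 group, where 49.5% (P1-α2) and 23.6% (P2-α8) of genes had one. CDKN1A likewise had none shared by both AsPC1 sgP2 lists, where 31.1% of genes had one.

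Overlapping peaks were merged into 85 sites, 24 at MYC, 16 at CCND1, 24 at CDKN1A, 9 at CDKN1B and 12 at CDK6. Of these, 22 were in a single list, 45 in a single line (20 in Panc10.05, 17 in BxPC3, 8 in AsPC1) and 14 in all 3 lines. AsPC1 had 10 lists and a lower −log10 q floor, against 4 lists per induced line, so these counts by line are not on 1 scale. No share over all regions is given for them. The listed gene was the nearest protein-coding gene for 24 of 24 MYC sites, 11 of 16 CCND1 sites, 13 of 24 CDKN1A sites, 10 of 12 CDK6 sites and 0 of 9 CDKN1B sites. Of the 85 sites, 4 (4.71%) were found in all 14 pan-HNF4α lists, against 2.98% of 78074 merged regions genome-wide. They lay at MYC (both flanks), upstream of CDKN1A and downstream of CDKN1B, the last being a merger of peaks at separate positions.

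**Figure D3:**
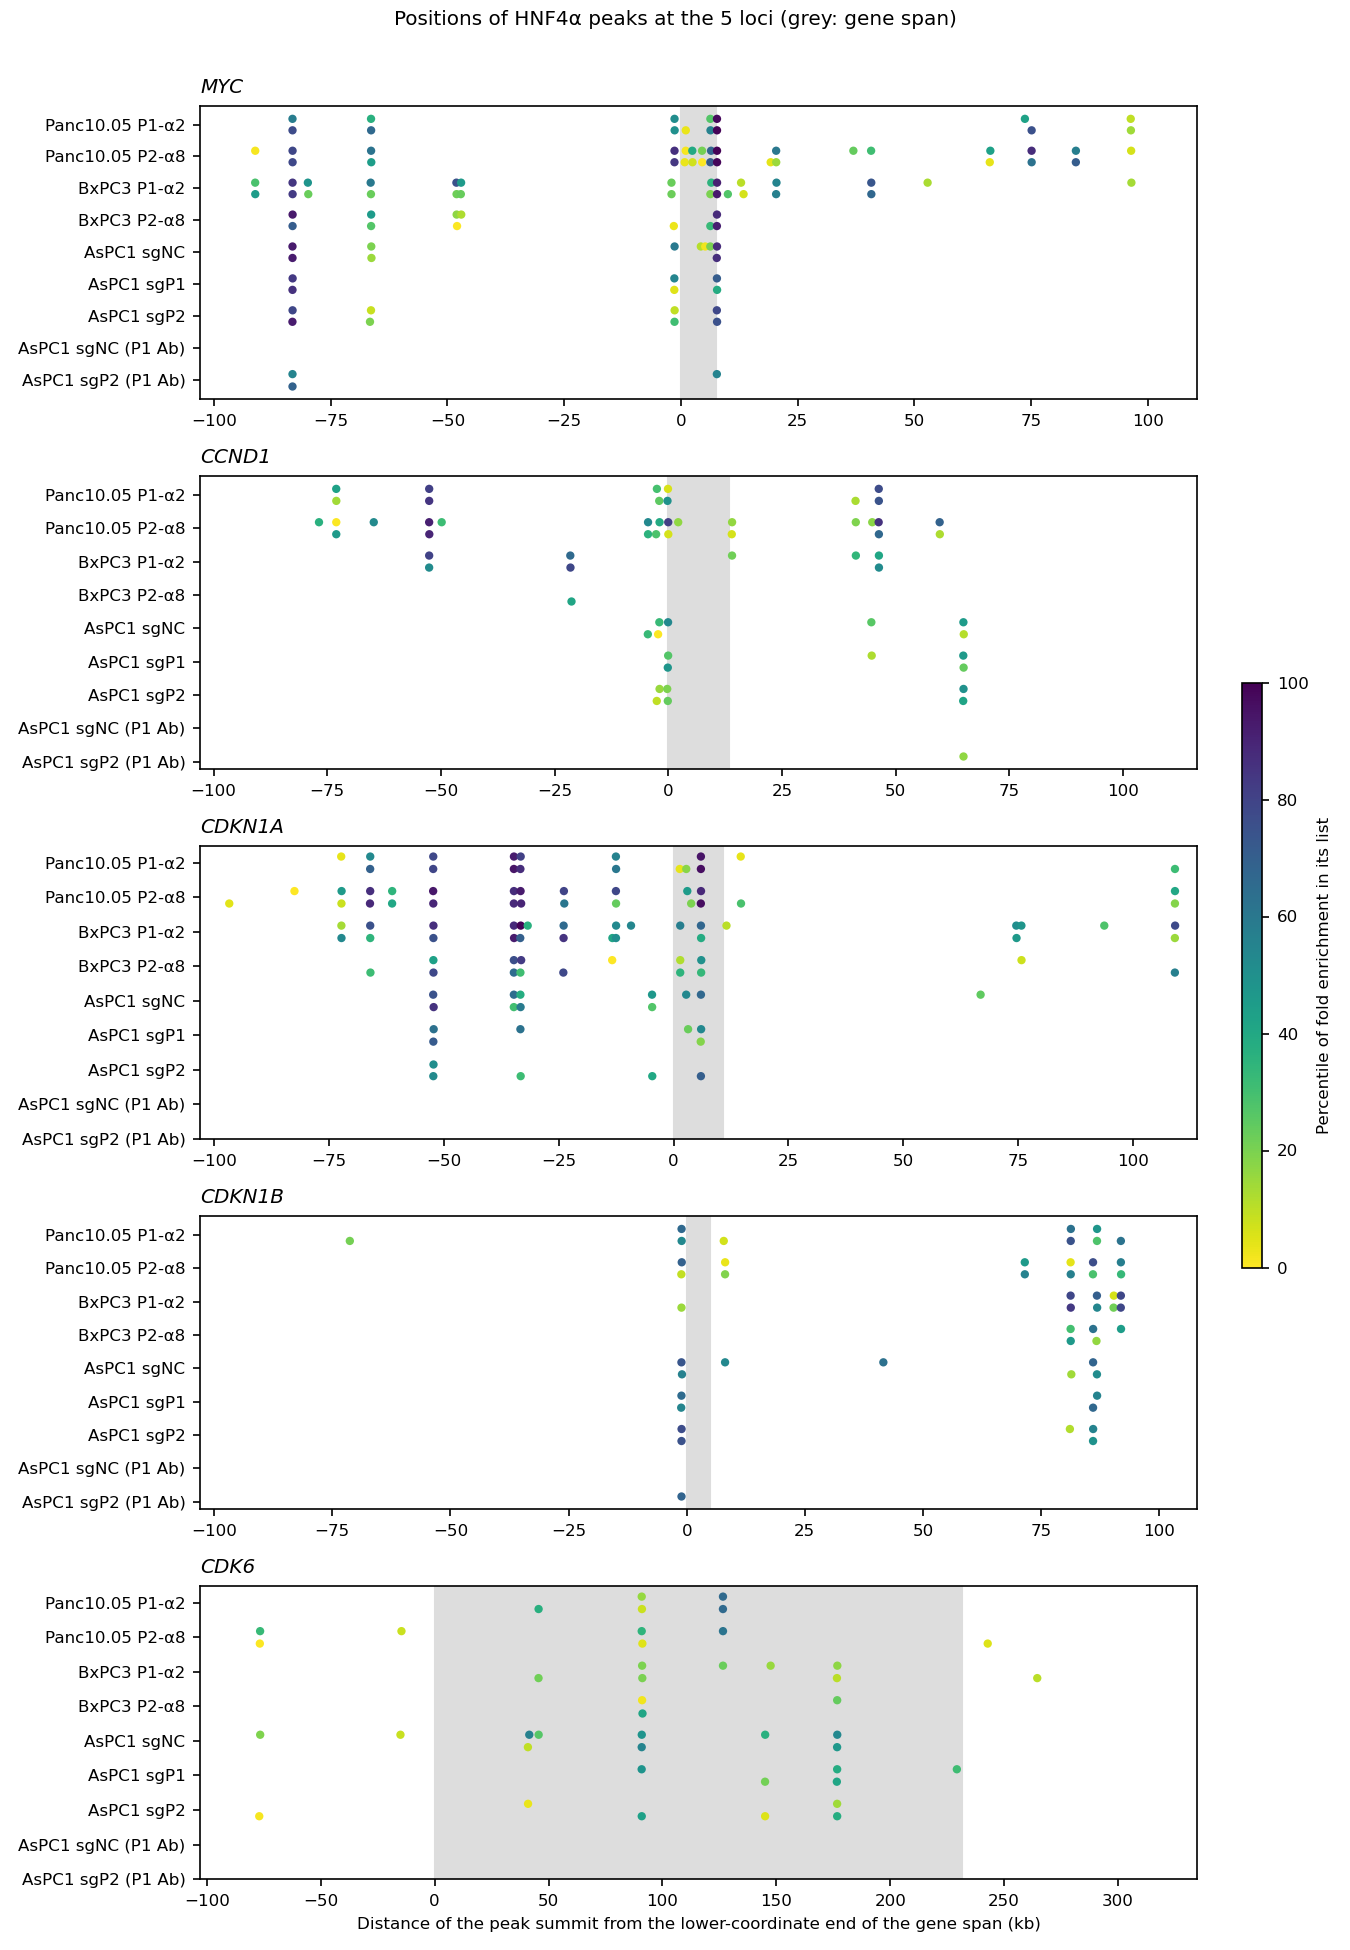
Peak summits at the 5 loci by distance in kb (x axis) from the lower-coordinate end of the gene span (grey), 1 row per group with replicate 1 above replicate 2; colour gives the percentile of fold enrichment within the list. The columns of points left of MYC and at its right end run through every pan-HNF4α group, and CCND1 has none near its start in BxPC3. CDK6 lies on the minus strand, so its transcription start is at the right.

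The most widely shared site lay 83.2 kb before MYC (chr8:127651570-127652655), outside any annotated gene span, in 16 of the 18 lists. Its percentiles were 58.1 and 77.1 in Panc10.05 P1-α2, 78.5 and 78.2 in P2-α8, 84.3 and 82.5 in BxPC3 P1-α2, and 93.2 and 70.8 in P2-α8. In AsPC1 they were 92.9 and 92.2 with sgNC, 83.5 and 85.6 with sgP1, and 78.8 and 92.4 with sgP2. The summits agreed to within 40 bp over all 16 lists, which include both sgP2 lists of the P1 antibody.

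A second MYC site lay 0.199 kb past the end of the gene (chr8:127742763-127743701), in 15 lists with a summit range of 61 bp. Its percentiles were 97.9 and 99.1 in Panc10.05 P1-α2 and 99.3 and 98.7 in P2-α8, with fold enrichments of 50.6 and 76.4, and of 48.8 and 39.7. In BxPC3 they were 91.2 and 93.0 with P1-α2 and 88.0 and 91.2 with P2-α8. In AsPC1 they were 87.6 and 86.8 with sgNC, 71.0 and 38.7 with sgP1, and 78.3 and 75.2 with sgP2. All 8 induced lists placed it at percentile 88.0 or above.

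The third MYC site lay 1.39 kb before the start (chr8:127732893-127734318), in 12 lists. Its percentiles were 51.3 and 50.1 in Panc10.05 P1-α2, 86.1 and 84.4 in P2-α8, and 22.9 and 22.5 in BxPC3 P1-α2, and BxPC3 P2-α8 replicate 2 listed it at 2.80. AsPC1 listed it at 59.4 in sgNC replicate 1 only, at 54.4 and 4.88 with sgP1, and at 9.62 and 30.5 with sgP2. Summits spread over 679 bp here, so peaks at separate positions were merged. The other MYC sites were 5 inside the gene and 16 outside it, among them 4 in the long noncoding RNA gene PVT1, none of which had a peak in AsPC1.

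At CCND1 no site was present in all 3 lines, where 14 of the 85 sites at the 5 loci were. The site in the most lists, 9, lay 0.057 kb before the start (chr11:69640608-69641439) with percentiles of 6.23 and 49.4 in Panc10.05 P1-α2 and 81.4 and 6.64 in P2-α8. AsPC1 had it at 53.3 in sgNC replicate 1, at 26.7 and 47.7 with sgP1, and at 19.6 and 23.4 with sgP2, and none of the 4 BxPC3 lists had it. The replicates disagreed widely in rank at this start site.

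A second CCND1 site lay 2.11 kb before the start (chr11:69638012-69639577), in 8 lists and again in no BxPC3 list. Panc10.05 had it at 29.7 and 24.7 with P1-α2 and at 39.2 and 28.2 with P2-α8, and AsPC1 at 32.7 and 0.609 with sgNC and 15.6 and 9.47 with sgP2. The sgP1 lists did not hold it. The third lay 51.6 kb past the end (chr11:69705780-69706366), nearest to the growth factor gene FGF19, and was found in AsPC1 alone, at 45.5 and 11.2 with sgNC, 45.7 and 23.7 with sgP1, 49.9 and 41.7 with sgP2, and 16.6 in P1-antibody sgP2 replicate 1. Of the 16 CCND1 sites, BxPC3 had a peak at 5 and Panc10.05 at 14. AsPC1, with its own q cutoff and more lists, had one at 5, a count not to be set against theirs. No share over all regions is given for these counts by line. The BxPC3 P2-α8 lists were also the shortest of the induced lines, with 12681 and 14666 peaks.

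At CDKN1A the most shared site lay 52.2 kb before the start of the gene span (chr6:36623582-36624565), where SRSF3 is the nearest protein-coding gene. Its percentiles were 78.4 and 79.0 in Panc10.05 P1-α2, 93.7 and 89.2 in P2-α8, 86.6 and 75.1 in BxPC3 P1-α2, and 42.6 and 78.4 in P2-α8. AsPC1 had it at 74.9 and 85.2 with sgNC, 62.9 and 71.8 with sgP1, and 51.1 and 52.4 with sgP2. It was present in all 14 pan-HNF4α lists and in neither sgP2 list of the P1 antibody.

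The next CDKN1A site, 33.3 kb before the span (chr6:36642542-36643824), was in 12 lists. It stood at 80.5 and 87.2 in Panc10.05 P1-α2, 92.9 and 89.7 in P2-α8, 99.3 and 69.8 in BxPC3 P1-α2, and 82.5 and 30.7 in P2-α8. AsPC1 had it at 38.1 and 58.8 with sgNC, at 62.3 in sgP1 replicate 1 and at 31.3 in sgP2 replicate 2. The third lay inside the gene, 5.96 kb from its start (chr6:36682040-36683771), at 94.7 and 96.2 in Panc10.05 P1-α2, 88.8 and 96.8 in P2-α8, 67.5 and 38.9 in BxPC3 P1-α2, and 49.7 and 33.3 in P2-α8. Its 4 AsPC1 percentiles lay between 18.6 and 70.0.

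At CDKN1B the most shared site lay 81.4 kb past the end (chr12:12803113-12804903), nearest to the RNA helicase gene DDX47. It merged 26 peaks at separate positions, and each list's value is that of its strongest peak there. Its percentiles in the 14 pan-HNF4α lists ran from 16.1 to 76.3 and the summits of those peaks spread over 884 bp. The second lay 1.10 kb before the start (chr12:12715886-12716903), inside the span of GPR19, an orphan receptor gene. It stood at 66.1 and 53.4 in Panc10.05 P1-α2, 69.2 and 9.08 in P2-α8, 14.9 in BxPC3 P1-α2 replicate 2, 73.3 and 56.3 in AsPC1 sgNC, 65.3 and 54.6 in sgP1, 76.7 and 74.6 in sgP2, and 68.1 in P1-antibody sgP2 replicate 1. Its peaks ended 465 bp to 927 bp before the transcript start, short of the promoter stretch printed above, and BxPC3 P2-α8 did not hold it. The third, 76.3 kb past the end (chr12:12798330-12798989), was in 10 lists, all 8 of the induced lines among them.

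At CDK6 the site in the most lists, 12, lay inside the gene, 90.9 kb from the lower-coordinate end (chr7:92695376-92696306). Its percentiles ran from 2.00 to 41.3 over the 8 lists of the induced lines, and 4 AsPC1 lists held it, at 43.1 to 55.0. The second, 177 kb from that end (chr7:92781199-92782027), was in 3 BxPC3 and 6 AsPC1 lists and in no Panc10.05 list. The third, 127 kb from that end (chr7:92731177-92731661), was in 3 Panc10.05 lists at 65.9, 65.8 and 61.4 and in 1 BxPC3 list at 23.04.

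The isoforms were compared within each induced line over the 5 loci together. Panc10.05 held 28 and 34 peaks with P1-α2 and 53 and 45 with P2-α8, a mean of 31 ± 4.24 against 49 ± 5.66 (SD, n = 2 each), so P1-α2 was lower by 18 peaks. BxPC3 held 45 and 38 with P1-α2 and 18 and 18 with P2-α8, a mean of 41.5 ± 4.95 against 18 ± 0 (SD, n = 2 each), so P1-α2 was higher by 23.5 peaks. In neither line did the groups overlap. With 2 lists a group the two-sided exact permutation test cannot go below p = 0.333, its value in both lines (0.48 adjusted over 7 comparisons).

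By number, 3 of the 5 genes (MYC, CCND1, CDKN1A) were lower in each P1-α2 list in Panc10.05, where 32.4% of genes were lower and 3.65% higher, and 5 of 5 were higher in each P1-α2 list in BxPC3, where 80.4% of genes were higher and 0.0214% lower. The 3 genes that were lower in Panc10.05 were thus higher in BxPC3, as were 27.1% of 18169 genes with a peak in both lines. List length stood in the same order as the number in BxPC3, where the P2-α8 lists held 12681 and 14666 peaks and the P1-α2 lists 41808 and 33737. With lists of equal length within the line, BxPC3 held 13 and 10 with P1-α2 and 18 and 16 with P2-α8, so the order turned, and Panc10.05 held 28 and 22 with P1-α2 and 33 and 25 with P2-α8.

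Divided by list length, both lines stood in the same order, with fewer peaks at the 5 loci with P1-α2. Panc10.05 held 11.3 and 9.96 per 10000 peaks with P1-α2 and 13.6 and 13.4 with P2-α8, a difference of -2.85. BxPC3 held 10.8 and 11.3 with P1-α2 and 14.2 and 12.3 with P2-α8, a difference of -2.22. Over both lines, with labels permuted within a line, the mean difference was -2.53 per 10000 (two-sided exact permutation p = 0.0556, the smallest that 36 labellings can give, with each of the 4 P1-α2 lists below each P2-α8 list of its line), a contrast added after the values were seen. Among peaks with −log10 q of at least 20 the mean difference was -0.675 (two-sided exact permutation p = 0.389) and the groups overlapped in both lines. By gene, CDKN1A alone of the 5 had fewer per 10000 in each P1-α2 list in both lines, where 6.11% of 18169 genes did. MYC and CDK6 also did in Panc10.05, where 27.4% of genes were lower and 18.1% higher. CCND1 went the other way in BxPC3, higher in each P1-α2 list (mean 1.04 against 0.341), where 30.6% of genes were higher and 23.2% lower.

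**Figure D4:**
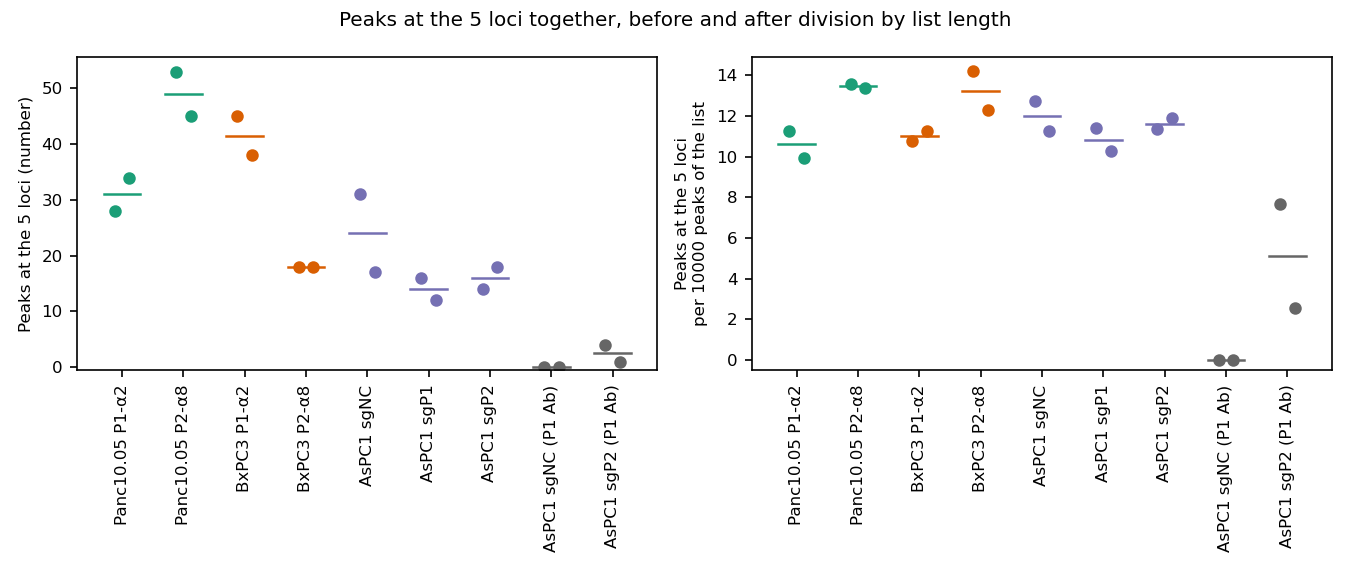
Peaks at the 5 loci together in each list, as a number (left) and per 10000 peaks of the list (right); points are the 2 lists of a group, lines their mean, with colours as for the plot of peaks by locus. By number the isoform groups stand in opposite order in Panc10.05 and BxPC3, and per 10000 the P2-α8 lists are the higher ones in both lines.

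Sites held by both lists of one isoform and neither of the other were counted in each line. In Panc10.05, 12 of 59 sites (20.3%) were specific to P2-α8, where 10.9% of 49247 regions were, and 0 were specific to P1-α2, where 3.64% were. With lists of equal length the count of 12 fell to 4. These sites were 5 at MYC, of which 2 inside the gene (2.45 and 4.53 kb from its start) and 2 in PVT1 (58.7 and 77.1 kb past the end), with the fifth at 12.9 kb past the end. There were 3 at CCND1 (4.44 kb before its start, 0.692 and 46.4 kb past its end), 2 at CDKN1A (61.2 and 23.8 kb before the span), 1 at CDKN1B (66.6 kb past its end) and 1 at CDK6. The highest in mean rank were the CDKN1A site at 23.8 kb, at percentiles 79.8 and 60.9, and the PVT1 site at 77.1 kb, at 57.6 and 70.9. In BxPC3 that CDKN1A site was in both P1-α2 lists, at 65.8 and 84.9, and in P2-α8 replicate 2, at 78.4. The PVT1 site was in no BxPC3 list.

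In BxPC3, 12 of 50 sites (24%) were specific to P1-α2, where 28.2% of 47225 regions were, and 0 to P2-α8, where 0.129% were. The share was thus near that of the genome. They were 6 at MYC (91.2, 79.9 and 2.03 kb before its start, 5.62, 12.9 and 33.2 kb past its end), 3 at CDKN1A (72.2 and 12.5 kb before the span, 63.7 kb past it), 2 at CCND1 (52.6 kb before its start, 33.0 kb past its end) and 1 at CDKN1B (85.4 kb past its end). The highest in mean rank were the MYC site at 33.2 kb, at 73.1 and 67.0, and the CCND1 site at 52.6 kb, at 80.2 and 52.3. The CCND1 sites at 52.6 and 33.0 kb and the CDKN1A site at 12.5 kb were also present in all 4 Panc10.05 lists, with P1-α2 as well as P2-α8. The MYC site at 12.9 kb past the end was specific to P2-α8 in Panc10.05 and to P1-α2 in BxPC3. The MYC site at 2.03 kb lay within the wider merged site described above at 1.39 kb before the start. There BxPC3 P2-α8 replicate 2 had a separate peak, at percentile 2.80, that did not overlap it. With lists of equal length the count of 12 fell to 1, and 4 sites were then specific to P2-α8, so the order turned.

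In AsPC1 the guides were compared with sgNC in the pan-HNF4α lists, the 2 comparisons sharing their sgNC lists. The 5 loci together held 31 and 17 peaks with sgNC, 16 and 12 with sgP1, and 14 and 18 with sgP2. The mean with sgP1 was 14 ± 2.83 against 24 ± 9.90 with sgNC (SD, n = 2 each), the groups stood 1 peak apart, and the two-sided exact permutation p was 0.333, the smallest possible. Without sgNC replicate 1 the difference of -10 became -3. The mean with sgP2 was 16 ± 2.83 (SD, n = 2) and overlapped sgNC, as it did sgP1. Per 10000 peaks the values were 12.8 and 11.2 with sgNC, 11.4 and 10.3 with sgP1, and 11.3 and 11.9 with sgP2, and all groups overlapped. With lists of equal length the differences from sgNC were 0.5 peaks for sgP1 and 1 for sgP2.

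Of 34 sites, 5 (14.7%) were held by both sgNC lists and neither sgP1 list, where 8.97% of 26867 regions were. They lay 66.3 kb before MYC, 2.09 kb before CCND1, 34.7 and 4.66 kb before CDKN1A and inside CDK6, 41.2 kb from its lower-coordinate end. With −log10 q of at least 8 in every list the count was 0. Against sgP2, 1 of 35 sites (2.86%) was specific to sgNC, where 7.20% of 27043 regions were, and it was the same CDKN1A site at 34.7 kb, at percentiles 64.8 and 30.2. That site was also in all 8 lists of the induced lines, at percentiles from 65.2 to 94.4. No site was specific to a guide against sgNC, where 0.409% (sgP1) and 0.407% (sgP2) of regions were. Between the guides, 1 of 24 sites, 66.5 kb before MYC, was specific to sgP2 at percentiles 8.28 and 19.5, where 4.32% of 20473 regions were, and 0 were specific to sgP1, where 2.75% were. It is the MYC site given above at 66.3 kb, as the distance was taken anew from the lists of each comparison. This MYC site was also in all 8 lists of the induced lines. MYC was the gene of the 5 with fewer peaks in each sgP1 list than in each sgP2 list, where 10.2% of genes were.

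With the antibody specific to P1 isoforms, the sgNC lists held 0 peaks at the 5 loci, of 697 and 260 peaks in all. The sgP2 lists held 4 and 1, of 5200 and 3916. In sgP2 replicate 1 these were the MYC sites 83.2 kb before the start and 0.199 kb past the end, the CCND1 site near FGF19 and the CDKN1B site in GPR19, and in replicate 2 the MYC site at 83.2 kb alone. That site, at percentiles 54.9 and 69.0, was the single site specific to sgP2 of 4, where 36% of 6274 regions had this pattern and 0.0638% the reverse. CDKN1A and CDK6 had no P1-antibody peak in any list, and 1 of the 5 loci had a peak in both sgP2 lists and 0 in both sgNC lists, where 34.6% and 3.69% of protein-coding genes had one. Each of the 5 had a pan-HNF4α counterpart, with an overlap of at least 1 bp, in the list of like genotype and number, as did 85.4% and 95.6% of all peaks in those lists. MYC was the gene of the 5 with more peaks in each sgP2 list, where 59.8% of 10019 genes with a peak had more.

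The remaining genes of cell-cycle entry were read from a list of 31 cyclins, kinases, inhibitors, RB and E2F family members, MYC partners and related regulators. Of these, 18 had a peak within 100 kb in both lists of all 7 pan-HNF4α groups, as did 4 of the 5 members and 45.3% of all protein-coding genes. They included the cyclins CCND2, CCND3 and CCNE2, the kinases CDK1 and CDK2, the phosphatase CDC25A, the inhibitor CDKN1C, the ubiquitin ligase subunit SKP2, RB1 and its relatives RBL1 and RBL2, the transcription factors E2F1, E2F2 and E2F4, the MYC partner MAX, and the MAX-binding antagonists MXD1 and MXI1. None lacked a peak in every list, where 2.64% of protein-coding genes did. In Panc10.05, 8 of the 31 had fewer peaks in each P1-α2 list and 1 had more, beside 32.4% and 3.65% of all genes with a peak. In BxPC3, 23 of 28 with a peak had more in each P1-α2 list and 0 fewer, beside 80.4% and 0.0214%. The list thus stood near the share of all genes.

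Genes at least 1 Mb away with the most similar peak numbers over the 18 lists, by the sum of absolute differences, were found by rule. For MYC they were COL4A2 and PKIG, with a sum of 14 each, and LSAMP, with 15. For CDKN1B they were ZBTB40 (7), METTL16 (8) and AHSG (9), and for CDK6 LCN1 (6), OBP2A (6) and PAEP (7). For CCND1 5 genes and for CDKN1A 4 genes were tied within the first 3 places and are not named. The rule set no distance between the named genes, so their windows may hold the same peaks. MYC had 112 peaks over all lists, CDKN1B 64 and CDK6 44, so the sums are not compared between members.

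Replicates shared part of their sites. The share of a group's sites found in both lists was 67.6% and 69.6% in Panc10.05 P1-α2 and P2-α8, 64.6% and 52.2% in BxPC3 P1-α2 and P2-α8, and 45.2%, 62.5% and 57.9% in AsPC1 sgNC, sgP1 and sgP2. The absence of a peak from a list is therefore not shown to be absence of binding. No share over all regions is given beside these, so they are not shown to be a trait of the 5 loci. The 2 AsPC1 sgNC lists also differed in length, with 24295 and 15118 peaks.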

How the data were processed

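The submitters' processing notes name Bowtie2 2.2.9, MACS2 2.2.7 and hg38. The authors deposited 1 narrowPeak list per library, so peaks were called per sample; the control used for calling is not given in the sources used here. In the deposited lists the fold enrichment is a linear ratio, p-values and q-values are −log10, and the score is an integer. The 14 input libraries have no list and were not used here. Summit positions were counted within 100 kb of RefSeq gene spans (GRCh38.p14), written 1-based. Spans carry no strand; the strand of CDK6 is that of the promoter table. Peaks overlapping by at least 1 bp were merged into sites. The members and lists were chosen with earlier results of these data known.

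Numbers, and numbers per 10000 peaks of the list, were compared by two-sided exact permutation tests over libraries, with Benjamini-Hochberg adjustment over 7 comparisons. Called genes were those whose groups did not overlap. The text names all 5 genes, the 3 sites per locus in the most lists, every group-specific site, cell-cycle genes with a peak in both lists of all 7 pan-HNF4α groups or in no list, and the 3 genes of most similar numbers. A few names chosen in this way are not reported here. Read depth is unknown, so no interval is given. Overlap and permutation code was tested on simulated data, bedtools 2.31.1 and scipy 1.17.1, with 0 of 8 checks differing. Python 3.11.15 and numpy 2.4.6 were used. Alternatives were stricter q-values, windows of 50 and 10 kb, equal list lengths, other overlap rules, left-out libraries and a replicate block. Contrasts over both induced lines were added after the data were seen.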

Additional observations from a re-analysis of the deposited data

Results flagged for a closer look

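The isoform contrast (P1-α2 minus P2-α8) in peak number differed between the induced lines, tested as the contrast in BxPC3 minus that in Panc10.05. It differed by 41.5 peaks for the 5 loci together, by 15.5 for MYC, by 8.5 for CCND1 and by 10.5 for CDKN1A, each at p = 0.0556 in a two-sided exact permutation test, whose 36 labellings within lines allow no smaller value. These contrasts were added after the values were seen. Groups already apart in opposite order in both lines give this p-value by design, so it adds nothing to that order. CDKN1B and CDK6 were not separated in this way. The same opposite order was seen for 27.1% of 18169 protein-coding genes with a peak in both lines and for 3 of the 5 members. With all 8 lists cut to the same length of 12681 peaks the difference for the 5 loci was -3.5.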

How the results depend on the processing

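The cause of these shifts was not tested. With lists of equal length by fold enrichment, the differences in peak number turned: -5.5 for the BxPC3 isoforms, 0.5 for sgP1 and 1 for sgP2 against sgNC, 0.5 for sgP1 against sgP2, -4.75 for the isoform mean over both lines and -1.5 for its difference between lines; with 8 lists of 1 length the last 2 were -3.75 and -3.5. Per 10000 peaks, the difference between lines in the isoform contrast was 0.625 and became -2.73 and -2.76 with these lengths, -0.0953 within 10 kb, and -0.335 to 1.59 when 1 library was left out. The sgP1 minus sgP2 difference per 10000 was -0.791 and became 0.955 at −log10 q of at least 8, 0.439 within 50 kb and 0.0577 within 10 kb. BxPC3 minus Panc10.05 per 10000 was 0.0836, became -0.858 within 10 kb, and ran from -0.611 to 0.587 with 1 library left out. The sgP2 minus sgNC difference per 10000 ran from -1.14 to 0.379 likewise, the latter without sgNC replicate 1.

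Group-specific sites are counted here over both directions of a comparison together. For the Panc10.05 isoforms 12 became 7 at −log10 q of at least 20, 7 within 50 kb, 4 within 10 kb and 4 at equal length. With 1 library left out, which loosens the rule, they were 16 to 22, and the last range for each comparison below is of this kind. For the BxPC3 isoforms 12 became 6 within 50 kb, 2 within 10 kb and 5 at equal length, and 16 to 22. For sgP1 against sgNC 5 became 0 at −log10 q of at least 8, 2 at 20, 3 within 10 kb, 2 at equal length, 2 at a reciprocal overlap of 50% and 3 with summits within 100 bp, and 6 to 15. For sgP2 against sgNC 1 became 0 within 10 kb and 3 at equal length, and 4 to 13. At equal length the sgP1 comparison had 1 site in each direction, and the sgP2 comparison had 2 specific to sgP2 and 1 to sgNC. For sgP1 against sgP2 1 became 0 at −log10 q of at least 8 and 20, within 50 and 10 kb, at equal length and with summits within 100 bp, and 1 to 5. For the P1 antibody 1 became 0 at −log10 q of at least 20, within 50 and 10 kb and at equal length, and 1 to 4.

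Correlations of deviations between samples of like replicate number ran from -0.0674 to 0.0680, so no pairing was seen in the lists. Whether samples of like number were handled together is not known. The replicate block leaves a difference in means unchanged by construction, here -18 and 23.5 peaks in Panc10.05 and BxPC3. Its two-sided exact permutation p of 0.5 is the smallest the block allows, so it shows nothing about pairing. Of the P1-antibody peaks, 4 of 5 kept their overlap at a reciprocal 50%.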
